A study of Mus musculus with 4 samples.

Results

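The sirtuins are the NAD-dependent deacylases of the cell. The family was taken by name from the count files as the 7 genes Sirt1 to Sirt7, together with Nampt and Cd38, an enzyme that makes NAD and an enzyme that consumes it. These 9 genes were followed among 33924 genes in all. Counts were added up per gene over its annotated transcripts, and 8 of the 9 genes had enough counts to be compared between the ages. Sirt3 had 0 counts in every library.

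The study compared marrow stromal cells of mature and elderly mice by RNA sequencing. The mature group held 2 libraries from mice of 3 months and the elderly group 2 libraries from mice of 24 months. All mice were C57Bl/6 of wild-type (WT) genotype and, per the study's methods, male. The labels give poly(A) RNA for all 4 libraries. The methods except samples named HU MSC and AMB, which were processed as total RNA. The AMB samples are named with an age in weeks, near that of the mature mice. It is not stated whether the mature libraries are among these. If they were, library type and age could not be told apart in any comparison below, those of intronic bases included. Labels and methods both give RNA from 3 or 4 mice for each group, whereas the titles name single mice. Whether a library is a pool or a single mouse, and thus whether the spread between the libraries of an age is biological or technical, is not given. The methods describe sorted cells that lacked the lineage proteins Ter119, CD31 and CD45 (Lin-) and carried the leptin receptor (LEPR+), whereas the labels name whole marrow. Lepr, the receptor used for the sort, stood at 6385 and 5637 CPM (counts per 1000000 of the TMM-scaled library size) in the mature libraries and at 4107 and 5787 CPM in the elderly ones. The libraries held between 10472117 and 15650518 counts.

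Sirtuins split NAD while they remove acetyl and other acyl groups from lysines of histones, transcription factors and enzymes, so their activity depends on the supply of NAD. NAMPT recycles nicotinamide, the product of that reaction, into the precursor of NAD. CD38 is a surface glycohydrolase that breaks NAD down, and it is best known from leukocytes. SIRT1, SIRT6 and SIRT7 work mainly in the nucleus, SIRT2 mainly in the cytoplasm, and SIRT3, SIRT4 and SIRT5 in mitochondria.

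What the counts measured differed between these genes. The counting rule is not given and was inferred from the gene annotation. By this inference a base received counts only where it lay in exactly 1 annotated transcript, on either strand. Such bases are called countable here. All 25621 transcripts without a countable base had 0 counts. Of the 7 sirtuins, 6 had no countable coding base (85.7%), against 5089 of the 22238 genes with a protein-coding transcript (22.9%). Sirt5 was the exception, with 314 countable coding bases. For Sirt1, 901 of the 1358 countable bases lay in introns of its coding transcripts. For Sirt2, 1646 of 1668 did so, and for Sirt7, 2532 of 2628. Sirt3 had 2 countable bases among 1570 exonic bases, so its count of 0 gives no level. Of the 4391 sirtuin counts in all libraries, 881 (20.1%) fell on protein-coding transcripts. By contrast, Nampt and Cd38 have 1 annotated transcript each, and every exonic base of both was countable.

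**Figure D1:**
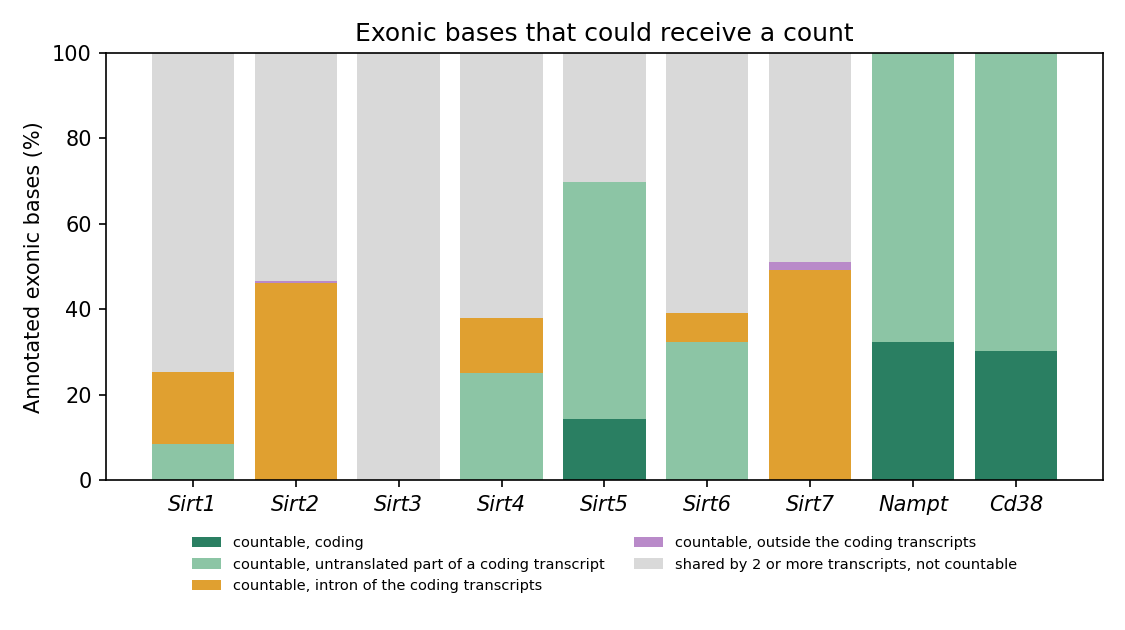
Share of the annotated exonic bases of each gene (percent, bars) that could receive a count, divided by where these bases lie, with bases shared between transcripts in grey. Nampt and Cd38 were countable throughout, Sirt5 at 69.9% of its bases, and Sirt3 at 0.127%, while intronic bases made up nearly all of what could be counted for Sirt2 and Sirt7.

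The edges of these intronic stretches show where the countable bases begin or end. The lines below give 40 bases around the end or the start of an exon that a coding transcript uses. They are from retained-intron transcripts of Sirt1, Sirt2 and Sirt7. For Sirt2 the transcript with the most counts was of another type and is not shown. This was Sirt2-008, a processed transcript with 43 and 64 counts in mature and 43 and 56 in elderly libraries. Lower case marks coding exon, where no count was possible, and capitals mark the countable intron bases. The coordinates are of mouse build mm9 and the letters are from the strand of the gene.
Sirt1-004, exon end, chr10:62794473-62794512, minus strand: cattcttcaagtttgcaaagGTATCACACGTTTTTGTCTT
Sirt1-005, exon start, chr10:62787934-62787973, minus strand: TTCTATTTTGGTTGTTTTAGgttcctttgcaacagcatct
Sirt2-004, exon end, chr7:29562247-29562286, plus strand: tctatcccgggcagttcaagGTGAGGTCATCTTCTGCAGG
Sirt2-003, exon end, chr7:29567898-29567937, plus strand: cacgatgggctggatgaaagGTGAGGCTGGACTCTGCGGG
Sirt7-006, exon end, chr11:120481457-120481496, minus strand: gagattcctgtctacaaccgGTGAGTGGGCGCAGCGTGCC
Sirt7-009, exon start, chr11:120483506-120483545, minus strand: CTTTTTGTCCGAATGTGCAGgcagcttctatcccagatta
Sirt7-007, exon end, chr11:120485784-120485823, minus strand: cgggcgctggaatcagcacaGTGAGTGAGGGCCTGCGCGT
Of 14 such edges in Sirt1, Sirt2 and Sirt7, all 7 at an exon end began with the intron bases GT and all 7 at an exon start ended with AG, the usual bases of a splice donor and acceptor. The countable stretch behind the edge was 355 bases long in Sirt1-004, 421 in Sirt1-005, 437 in Sirt2-004, 441 in Sirt2-003, 395 in Sirt7-006, 591 in Sirt7-009 and 424 in Sirt7-007.

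Levels were compared between genes per kilobase of countable bases. The countable bases of a transcript numbered 71 in Sirt4-005 and 4547 in Nampt. How reads that also touched shared bases were counted is not given, so the order between genes is approximate. In the mature libraries the order ran from Nampt (61.3 ± 12.7 CPM per kilobase, mean ± SD, n = 2) and Sirt1 (37.4 ± 4.69) down to Cd38 (1.03 ± 0.0430). Between them lay Sirt5 (6.92 ± 1.59), Sirt2 (5.77 ± 0.0880), Sirt6 (5.65 ± 1.41), Sirt7 (5.22 ± 2.07) and Sirt4 (4.04 ± 0.787), and each of these 5 overlapped its neighbour in the order. In the elderly libraries Nampt (74.9 ± 9.07 CPM per kilobase) and Sirt1 (31.1 ± 1.75) again stood apart from the rest. Cd38 then stood at 3.83 ± 0.364 CPM per kilobase, above the mean of Sirt4 (3.44 ± 1.39) but within its spread. For Sirt1, Sirt2 and Sirt7 this level is mostly one of intronic bases and is not the level of the coding mRNA. For Sirt4, 102 of 165 counts lay on retained-intron transcripts.

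The age comparison asked which of these genes differed between mature and elderly cells. Cd38 was the only gene of the 8 that passed the test, and it was higher in elderly cells. Across all 21340 genes tested, 2.73% passed at an adjusted p under 0.05, 2.28% upward and 0.45% downward, and 11.2% had an unadjusted p under 0.05 (edgeR's quasi-likelihood test with Benjamini-Hochberg adjustment). The libraries of the ages did not overlap for 4 of the 8 genes, Sirt1 and Sirt2 with both elderly libraries lower and Sirt6 and Cd38 with both higher. That share stood beside 40.9% of all genes tested, made up of 22.9% with both elderly libraries above and 18.1% with both below.

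**Figure D2:**
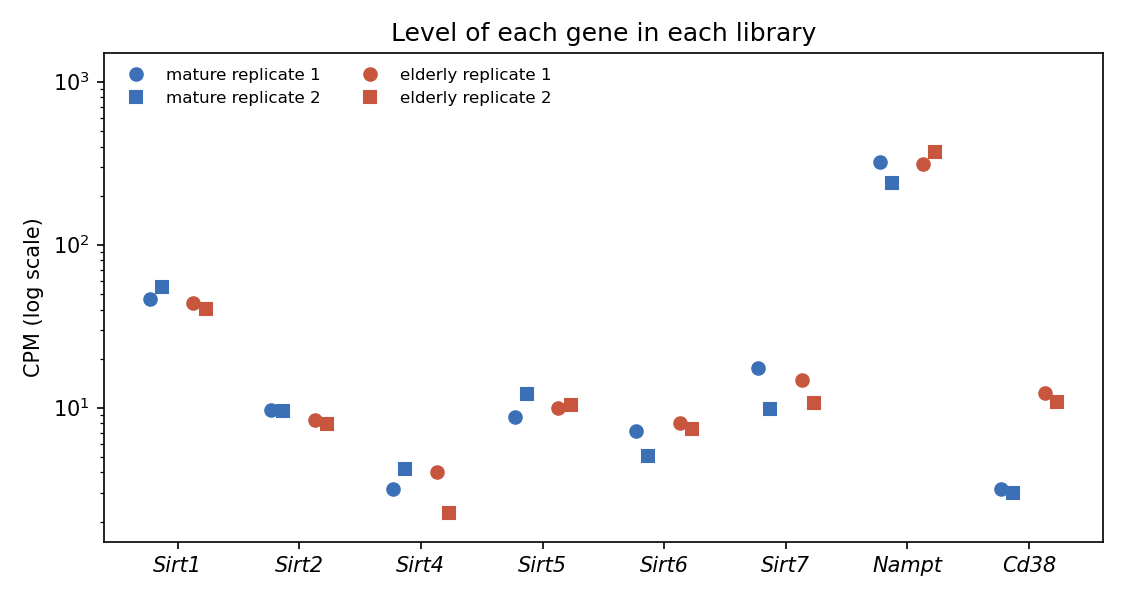
Level of each gene (CPM, log scale) in the 2 mature (blue) and 2 elderly (red) libraries, circles for replicate 1 and squares for replicate 2. Cd38 stands at 3.18 and 3.00 CPM in the mature libraries and at 12.3 and 10.8 CPM in the elderly ones, while the points of the other genes lie close together or overlap.

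Cd38 lies at chr5:44260048-44303614 on the plus strand, with 8 exons and 3014 exonic bases, 912 of them coding. The mature libraries held 37 and 35 of its counts and the elderly libraries 137 and 163, or 3.18 and 3.00 CPM against 12.3 and 10.8 CPM. Both elderly libraries were far above both mature ones, and the replicates of each age were close. The mean rose from 3.09 ± 0.130 to 11.5 ± 1.10 CPM (SD, n = 2 per age), a log2 fold change of 1.89 with a standard error (SE) of 0.33 and an adjusted p of 0.00845 in edgeR's test. The fold was 3.72, with a 95% interval from 2.26 to 6.12. Because RNA was measured in bulk, more cells that express Cd38 and more Cd38 RNA per cell cannot be told apart. The call was lost with edgeR's exact test and the study's set dispersion of 0.2 (adjusted p = 0.243). It was also lost without elderly replicate 1 (log2 fold change 1.78, adjusted p = 0.174) and without elderly replicate 2 (1.99, adjusted p = 0.601), fits in which 40 and 0 genes were called in all and 1959 and 1637 had an unadjusted p under 0.05.

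Markers of blood cells, most of which the sort gate leaves out, were also higher in the elderly libraries. The 16 neutrophil lineage markers summed to 2290 and 1314 CPM in the mature libraries and to 4976 and 4880 CPM in the elderly ones, with 9 of 15 tested called higher. The plasma cell markers summed to 229 and 166 CPM against 1034 and 997 CPM, with 4 of 10 called higher (Igj, Ighm, Prdm1 and Ighg1). Of these 10, 6 had a higher and 4 a lower estimate in elderly cells. Among erythroid markers 9 of 12 were called higher (458 and 203 CPM against 1539 and 1385 CPM), and among macrophage and monocyte markers 5 of 13 (643 and 427 CPM against 982 and 1086 CPM). Of 11 B lineage markers tested, 9 had a higher and 2 a lower estimate in elderly cells, and only Rag1 was called, upward. The sum over the listed B lineage markers nevertheless fell, from 771 and 681 CPM to 515 and 607 CPM. Since only 2 estimates were lower, that fall rests on few genes. Of the 14 listed B lineage genes, 8 had no countable coding base (57.1%, against 22.9% of genes with a protein-coding transcript). Markers of LEPR stromal cells had lower estimates in elderly cells for 12 of 14 genes, with sums of 40938 and 41369 CPM in mature and 29170 and 38629 CPM in elderly libraries. Osteoblast markers summed to 7103 and 6468 CPM against 2288 and 4262 CPM, with 2 called higher and 1 lower of 10. Cell division genes (5 of 12 higher) and adipocyte markers (1 higher of 6) held further calls, whereas none was called by edgeR among LEPR stromal (14 tested, 2 at an unadjusted p under 0.05), megakaryocyte (7, 0), endothelial (8, 3) and T and NK cell markers (9, 4). Ptprc, which encodes CD45, had 4, 1, 12 and 8 counts on 152 countable bases. Cd79b, Cd22, Cd74, Irf4, Fcgr1, Tek and Lep were at 0 in every library; Lep had 3029 countable bases and the others between 0 and 236. The part of these cells in the Cd38 difference was not tested.

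The genes whose pattern over the 4 libraries was most like that of Cd38 were Hcls1, Was and Cebpe, by the Euclidean distance of centred log2 CPM among 6612 protein-coding genes with a mean of at least 10 CPM. Hcls1, a Lyn kinase substrate of blood cells, lay at a distance of 0.08 with 7.75 and 6.86 CPM in mature and 29.4 and 25.0 CPM in elderly libraries. Was, the actin regulator of blood cells, lay at 0.12 (8.69 and 7.63 against 32.6 and 26.0 CPM). Cebpe, a transcription factor of granulocytes and 1 of the neutrophil markers above, lay at 0.15 (4.65 and 4.72 against 17.9 and 17.7 CPM). This is a description over 4 libraries, with no test.

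Nampt, at chr12:33505200-33538234 on the plus strand, encodes the rate-limiting enzyme of the NAD salvage pathway and was the most abundant of the genes followed. It had 3710 and 2772 counts in mature and 3466 and 5603 counts in elderly libraries, which is 319 and 238 CPM against 311 and 370 CPM. Elderly replicate 1 lay between the mature libraries, so the ages overlapped. The means were 279 ± 57.7 and 341 ± 41.2 CPM, with a log2 fold change of 0.29 (SE 0.21, 95% interval -0.17 to 0.75) and an adjusted p of 0.690. The nearest patterns to that of Nampt were Tcp11l2 and Ano10 (distance 0.04 each) and Dusp4 (0.05), all called in neither direction. Being picked by likeness over the same libraries, these genes give no separate evidence.

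Sirt1, the best studied nuclear deacetylase of the family, lies at chr10:62781753-62844452 on the minus strand. Its counts were 538 and 645 in mature and 489 and 615 in elderly libraries, or 46.3 and 55.3 CPM against 43.9 and 40.6 CPM. Both elderly libraries were below both mature ones, but the gap between the ages was smaller than the gap between the mature libraries. The means were 50.8 ± 6.37 and 42.3 ± 2.37 CPM, a log2 fold change of -0.27 (SE 0.22, 95% interval -0.74 to 0.20) with an adjusted p of 0.724. Only 5 of its 2287 counts fell on a coding transcript, as 0, 0, 1 and 4 counts. The comparison is thus one of intronic bases assigned to its retained-intron and decay transcripts. Whether these transcripts were the source of the reads was not tested. The genes closest to Sirt1 in pattern were Klc1 (distance 0.05), Tmem184b (0.05) and Ubqln4 (0.06), none of which passed the test. As they were picked by likeness over the same libraries, this is no separate evidence.

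Sirt6, a nuclear deacylase of chromatin, at chr10:81084530-81090542 on the minus strand, had the reverse order. It had 84 and 59 counts in mature and 89 and 112 in elderly libraries, with 7.23 and 5.06 CPM against 8.0 and 7.39 CPM. Both elderly libraries were higher, by little in the case of mature replicate 1. The log2 fold change was 0.32 (SE 0.34, 95% interval -0.40 to 1.05, adjusted p = 0.817). Unlike those of Sirt1, 87.5% of the Sirt6 counts lay on coding transcripts, in their untranslated parts.

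Sirt7, the deacylase of the nucleolus, at chr11:120479686-120486554 on the minus strand, differed widely between the mature libraries. Its counts were 204 and 115 in mature and 164 and 161 in elderly libraries, which is 17.6 and 9.86 CPM against 14.7 and 10.6 CPM. The elderly values lay within the mature range. The log2 fold change was -0.12 (SE 0.33, 95% interval -0.83 to 0.60, adjusted p = 0.950). None of its counts was on a coding transcript.

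Sirt2, the mainly cytoplasmic deacetylase whose substrates include tubulin, lies at chr7:29551754-29573684 on the plus strand. It had 113 and 111 counts in mature and 94 and 121 in elderly libraries, or 9.73 and 9.52 CPM against 8.44 and 7.98 CPM. The replicates were close and both elderly libraries were lower. The log2 fold change was -0.23 (SE 0.30, 95% interval -0.87 to 0.42) with an adjusted p of 0.875. Here too no count was on a coding transcript.

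Among the mitochondrial sirtuins, Sirt5, a desuccinylase and demalonylase, was the family member with the most direct measurement, since both of its transcripts are coding and 69.9% of its exonic bases were countable. It lies at chr13:43460882-43490571 on the plus strand and had 102, 142, 110 and 158 counts, with 8.78 and 12.2 CPM in mature and 9.88 and 10.4 CPM in elderly libraries. The elderly values lay inside the mature range, and the log2 fold change was -0.04 (SE 0.30, 95% interval -0.70 to 0.61, adjusted p = 0.981). Sirt4, at chr5:115928019-115934734 on the minus strand, had 37, 49, 45 and 34 counts, the fewest of the sirtuins with any, and 38.2% of them lay on coding transcripts. Its levels of 3.18 and 4.2 CPM in mature and 4.04 and 2.24 CPM in elderly libraries overlapped, with a log2 fold change of -0.25 (SE 0.45, 95% interval -1.21 to 0.72, adjusted p = 0.922). Sirt3, the main mitochondrial deacetylase, lies at chr7:148049569-148068208 on the minus strand and could not be compared.

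**Figure D3:**
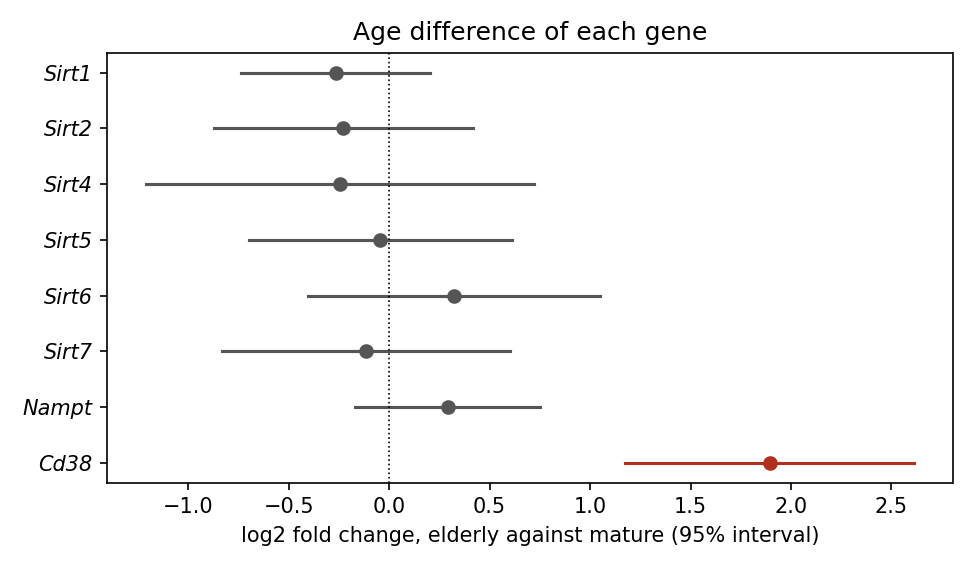
Log2 fold change of elderly against mature cells for each of the 8 genes with counts (points) with its 95% interval (lines), red where the adjusted p was under 0.05. The interval of Cd38 runs from 1.17 to 2.61, and those of the other genes include 0.

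The single transcripts of the sirtuins were compared in a second fit over 42413 transcripts, of which 1.66% were called. Of 24 sirtuin transcripts tested, 0 were called in edgeR's test, 0 had an unadjusted p under 0.05, and the lowest adjusted p was 0.742. The Sirt1 counts were assigned mostly to Sirt1-004 (260 and 301 in mature, 244 and 261 in elderly) and Sirt1-005 (188 and 212, 144 and 239). Sirt1-003, annotated for nonsense-mediated decay, held 90 and 132 against 100 and 111. On the CPM scale the ages overlapped for Sirt1-005 and Sirt1-003, and for Sirt1-004 both elderly libraries (21.7 and 17.8 CPM) were below both mature ones (21.9 and 25.6 CPM). In Sirt7, the retained-intron transcripts Sirt7-007 (74, 50, 76 and 88 counts) and Sirt7-009 (76, 27, 37 and 39) had different orders over the libraries, and mature replicate 1 alone was high for Sirt7-009. The coding transcript Sirt5-202 was counted 3 and 29 times in mature and 15 and 12 times in elderly libraries, while Sirt5-201 had 99, 113, 95 and 146. For Sirt5-202 the gap between the mature replicates therefore exceeded any gap between the ages. Cd38-001, the transcript of Cd38, was called in this fit as well (95% interval 1.18 to 2.69 on the log2 scale, adjusted p = 0.00396).

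**Figure D4:**
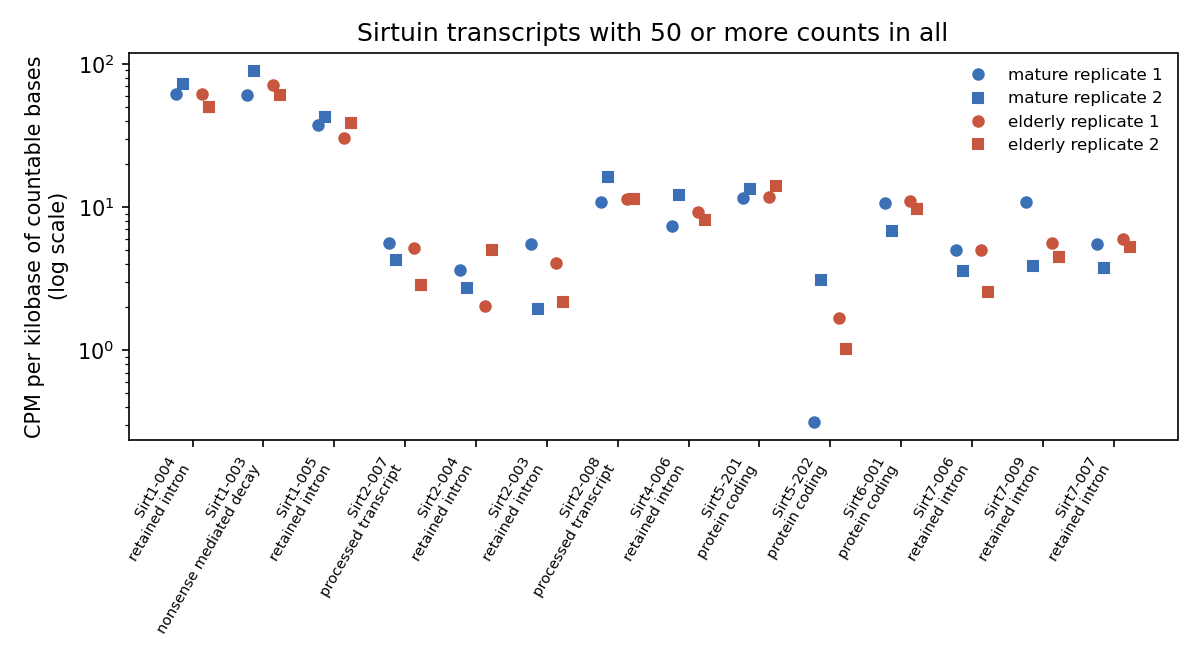
CPM per kilobase of countable bases (log scale) of the sirtuin transcripts with 50 or more counts in all, in the 2 mature (blue) and 2 elderly (red) libraries. The Sirt1 transcripts lie highest, and the ages overlap or lie close for each transcript, with the widest spread for Sirt5-202.

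Of 18 listed genes of NAD synthesis, 16 were found under their symbol and 15 were tested. None was called in edgeR's test or by DESeq2. In edgeR's test 3 had an unadjusted p under 0.05 (20%, against 11.2% of all genes tested). Among these, Qprt rested on 15 counts, all in elderly replicate 1. The median log2 fold change of the list was 0.13, against 0.02 over all genes tested. The smallest p was that of Acmsd, which diverts tryptophan breakdown away from NAD (6 and 10 counts in mature, 34 and 26 in elderly, log2 fold change 1.77, adjusted p = 0.249). Its elderly libraries were both higher, at low counts.

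Of 26 NAD-consuming and nicotinamide-clearing genes, all tested, only Nt5e was called. Nt5e encodes CD73, an ectonucleotidase also used as a marker of stromal cells, and was placed in the list because it can process extracellular NAD metabolites. It had 299 and 305 CPM in mature and 145 and 164 CPM in elderly libraries. The replicates were close and the ages far apart. The mean fell from 302 ± 4.37 to 154 ± 13.7 CPM, a log2 fold change of -0.97 (SE 0.19, adjusted p = 0.0181). The call was lost when any of the 4 libraries was left out, with log2 fold changes from -1.06 to -0.90 and adjusted p-values of 0.0623 and 0.10 without mature replicates 1 and 2 and of 0.111 and 0.601 without elderly replicates 1 and 2. It was also lost under the exact test (adjusted p = 1.00). The 14 markers of LEPR stromal cells, whose summed levels are given above, were also mostly lower in estimate, and their part in the Nt5e difference was not tested. In the list, 5 of 26 genes had an unadjusted p under 0.05 (19.2%, against 11.2% of all genes tested), and the median was -0.02. Besides Nt5e these were Art4 (log2 fold change 1.56, adjusted p = 0.108), Art3 (2.05, adjusted p = 0.155), Enpp1 (-0.63, adjusted p = 0.228) and Pnp (0.56, adjusted p = 0.280), which like the next genes are named after their values were seen. Parp1, the poly(ADP-ribose) polymerase of the DNA damage response, had 1048, 1016, 1493 and 1590 counts (log2 fold change 0.43, adjusted p = 0.465). Bst1, the close relative of Cd38, had 10 and 1 counts in mature and 8 and 7 in elderly libraries (log2 fold change 0.30, adjusted p = 0.960).

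Of 44 genes of proteins that sirtuins deacylate, 40 were tested, and Acss1 alone was called. Acss1, the mitochondrial acetyl-CoA synthetase, is a substrate of SIRT3. It had 81 and 54 counts in mature and 348 and 228 in elderly libraries, or 6.97 and 4.63 CPM against 31.3 and 15.0 CPM. Both elderly libraries were higher, and they differed widely from each other. The mean rose from 5.80 ± 1.66 to 23.2 ± 11.5 CPM, a log2 fold change of 1.99 (SE 0.37, adjusted p = 0.0131). The call was lost without elderly replicate 1 (log2 fold change 1.36, adjusted p = 0.318), without elderly replicate 2 (2.43, adjusted p = 0.601) and under the exact test (adjusted p = 0.182). In this list 6 genes had an unadjusted p under 0.05 (15%, against 11.2% of all genes tested), and 28 had a higher and 12 a lower estimate in elderly cells, with a median of 0.20. Over all genes tested 10927 estimates were higher and 10413 lower.

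Of 16 regulators of sirtuin genes or proteins, 0 were called in edgeR's test, and 1 had an unadjusted p under 0.05 (6.25%). That gene was Dyrk3, a kinase that phosphorylates SIRT1, with 88 and 42 counts in mature and 193 and 205 in elderly libraries (log2 fold change 1.46, adjusted p = 0.0554). Its adjusted p was under 0.05 in 10 of 16 alternative fits, DESeq2 among them (0.0222). The median of the list was 0.12.

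Zinc-dependent histone deacetylases, which need no NAD, were set beside the sirtuins. Of the 11, 0 were called in edgeR's test or by DESeq2 and 1 had an unadjusted p under 0.05 (9.09%), with 6 estimates higher, 5 lower and a median of 0.04. The gene was Hdac9, with 13 and 20 counts in mature and 34 and 58 in elderly libraries (log2 fold change 1.28, adjusted p = 0.298). Of 17 circadian clock genes tested, some of whose proteins drive Nampt or are bound by SIRT1, 0 were called in edgeR's test, 4 had an unadjusted p under 0.05 (23.5%, against 11.2% of all genes tested), and the median was -0.10. The smallest p was that of Bhlhe40, a repressor of the clock (1224 and 802 counts in mature, 2467 and 1965 in elderly, log2 fold change 1.01, adjusted p = 0.0830, under 0.05 in 9 of 16 alternative fits and 0.0180 by DESeq2). Of 14 regulators of mitochondrial biogenesis, 0 were called in edgeR's test and 3 had an unadjusted p under 0.05 (21.4%, against 11.2% of all genes tested), with 7 estimates on each side and a median of 0.08. The smallest p was that of Polg2, the accessory subunit of the mitochondrial DNA polymerase (5811 and 7821 counts against 4323 and 4927, log2 fold change -0.71, adjusted p = 0.121 in edgeR's test and 0.0253 by DESeq2). With coding transcripts only, Polg2 had too few counts to be tested, so its values are not those of the coding mRNA. Of the 14 genes, 4 had no countable coding base (28.6%, against 22.9% of genes with a protein-coding transcript). Over the 7 lists that share ran from 12.5% to 28.6%.

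**Figure D5:**
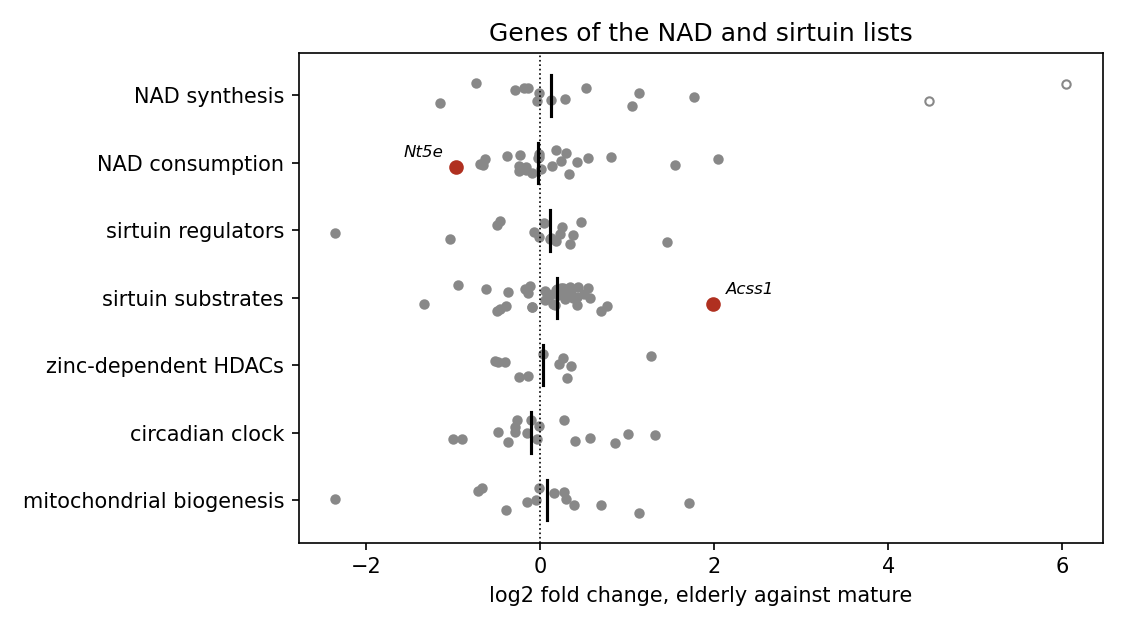
Log2 fold change of elderly against mature cells for each gene of 7 lists (points), with the median of the list as a black bar, called genes in red and named, and 0 as a dotted line. The medians lie between -0.10 and 0.20, and the 2 open points are genes with 0 counts in both mature libraries (Qprt and Kynu), whose position is not a measured size.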

How the data were processed

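The authors removed adapters with CutAdapt, mapped reads with HISAT2 to mm9 and counted them with featureCounts (per the paper's methods and the submitters' processing notes); versions, annotation and strand setting are not given in the sources used here. The deposited values are raw counts per Ensembl transcript. Of 95883 transcripts, 388 without a match in GENCODE M1 (at most 0.0888% of a library's counts) were left out of the sums per gene.

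Genes with more than 2 counts over the 4 libraries were normalized by TMM and compared with edgeR 4.0.16 in R 4.3.3 (quasi-likelihood test, trended dispersion, 2-sided, prior count 0.125, no covariate, Benjamini-Hochberg over 21340 genes). A gene was called at an adjusted p under 0.05. Intervals are 95% intervals from the standard error and cover the spread between these libraries only, which may be technical. CPM use TMM-scaled library sizes. All 4 libraries were used, grouped by the age in their titles. Sequences are from the mm9 genome (NCBIM37).

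The 9 genes, the pathway lists and the cell type markers were chosen with earlier results of these data known, and 1 marker gene is not reported here. Named are all 9 genes, the called genes of each pathway list (at most 4) or else the gene with the smallest p, and for Sirt1, Nampt and Cd38 the 3 genes nearest in pattern (log2 CPM with prior count 2). Alternatives were DESeq2 1.42.0, the exact test at a dispersion of 0.2 as in the study, edgeR's filterByExpr or no filter at all, scaling by library size alone or by TMM factors that leave out hemoglobin, immunoglobulin and histone genes, a robust fit, the replicate number as a block, coding genes or coding transcripts only, transcripts with more than 2 counts, a prior count of 2, other thresholds, and each library left out.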

Additional observations from a re-analysis of the deposited data

How the results depend on the processing

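Cd38 stayed higher in elderly cells in all 16 alternative fits and was called in 13 of them, the exact test (1.89 on the log2 scale) and the fits without either elderly library being the exceptions (1.78 to 1.99 over the 4 libraries left out in turn). The number of the 9 genes called was therefore 0 under the exact test and between 0 and 1 with a library left out, and it stayed 1 under both other thresholds. With coding transcripts only, the Sirt1 difference turned to 4.22, which rests on 0 mature and 5 elderly counts and is not a measured size, and Sirt2 and Sirt7 had no counts to fit. With each library left out in turn, the log2 fold change ran from -0.52 to 0.36 for Sirt7, from -0.26 to 0.17 for Sirt5, from -0.73 to 0.13 for Sirt4 and from -0.60 to 2.64 for Bst1, and no sirtuin was called in any fit. Among transcripts it crossed 0 for Sirt1-003 (-0.45 to 0.11), Sirt2-008 (-0.51 to 0.065), Sirt5-201 (-0.088 to 0.15), Sirt6-001 (-0.058 to 0.60), Sirt7-006 (-0.74 to 0.22) and Sirt7-009 (-1.12 to 0.37). Over all genes, 583 were called, against 233 with the exact test, 1157 without a filter, 908 with the robust fit, 1262 with the replicate block, and 866, 605, 40 and 0 without mature replicates 1 and 2 and elderly replicates 1 and 2. DESeq2 called 1 sirtuin regulator, 2 sirtuin substrates, 1 clock gene and 1 mitochondrial regulator, and the replicate block called 1, 2, 3 and 1 of these and 4 NAD consumers. A fit without a library assumes that the lone library of that age varies like the others. Same-numbered libraries did not deviate together (correlation 0.04), and with the replicate block Cd38 stood at 1.89 and no call changed among the 9 genes. Precision is limited by 2 libraries per age, by low counts of Cd38 and Sirt4, and by the few countable bases of the sirtuins.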
